A study of Mus musculus with 6 samples.

Results

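The circular RNAs (circRNAs) described here come from 10 genes of the cAMP cycle, the cyclases Adcy2, Adcy5 and Adcy9 and the phosphodiesterases Pde1a, Pde1c, Pde4b, Pde4d, Pde7b, Pde8b and Pde10a. Every circRNA with 1 of these 10 genes as its only listed host was taken, with no selection on its values. The 61 circRNAs listed with several host genes were not searched for these genes. This gave 17 of the 11171 circRNAs listed in the cortex of these mice. They came from 8 of the 10 genes, since neither Pde4b nor Pde8b was the only listed host of any circRNA. The phosphodiesterases hosted 9 circRNAs and the cyclases 8.

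Cortex was taken from 3 Control mice and 3 mice with temporal lobe epilepsy (TLE), all 6-week-old C57BL/6 males, and 1 library was sequenced from each mouse. The TLE mice were given scopolamine methyl bromide and then pilocarpine, a muscarinic agonist that starts Status Epilepticus (SE), and diazepam to end it; the Control mice were given saline. TLE cortex was collected 24 h after SE. Ribosomal RNA was depleted from total RNA, and no enrichment for circular RNA is described in the labels.

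Cyclic AMP is made from ATP by adenylyl cyclases, which answer to G protein-coupled receptors, and is broken down by phosphodiesterases. Its level in neurons sets the activity of protein kinase A (PKA), of the exchange factor Epac and of cyclic nucleotide-gated channels, and through PKA the transcription factor CREB. A circRNA forms when the end of an exon is joined back to the start of an exon upstream, so that it carries a junction that the linear mRNA of the gene lacks. Values are in SRPBM, the reads spliced across that junction scaled by the mapped reads of the library. A junction is a single position in any circle, so SRPBM was not scaled by the length of the circle.

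The junctions of the 7 circRNAs that could be compared between the groups are shown, because a read that crosses such a junction is what each value counts. Small letters give the last 15 bases of the last exon, and capitals the first 15 bases of the first exon to which it is joined. The sequences were put together from GENCODE M21 transcripts on GRCm38, 5′ to 3′ on the strand of the gene, and were not read from the libraries.
Adcy2 mmu_circ_0002065, exon 3 to exon 2, chr13:68887959-68982544, minus strand: cacctgttctggcagGAGGTAGAAGACCAT
Adcy9 mmu_circ_0003319, exon 11 to exon 5, chr16:4294663-4312789, minus strand: agcacagaatttcagACTTGCCCTTCTTGT
Adcy9 mmu_circ_0003322, exon 8 to exon 5, chr16:4304377-4312789, minus strand: catagtgtccatcagACTTGCCCTTCTTGT
Pde4d mmu_circ_0001812, exon 7 to exon 4, chr13:109740387-109772680, plus strand: aagccaccatcacagTTTCGATGTGGACAA
Pde4d mmu_circ_0001813, exon 13 to exon 9, chr13:109933868-109939361, plus strand: ttctgatcaatacaaTTCAAAAGGATGCTG
Pde7b mmu_circ_0000146, exon 8 to exon 4, chr10:20434465-20443369, minus strand: gccaacctgtatcagATACAACACACTCAG
Pde10a mmu_circ_0003903, exon 13 to exon 6, chr17:8941141-8953923, plus strand: ttgcactgtgctaacAGCCTGTGTGTGTTC
The pair from Adcy9 ends in the same 15 capitals because both circles begin at exon 5.

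The libraries held between 32504 and 56516 junction reads in all, as worked out from the step between neighbouring SRPBM values. The 17 circRNAs took 268 of these reads. They made up between 0.0954% and 0.124% of the SRPBM of each library. A value of 3 junction reads, used as the floor, stood for 25.6 SRPBM in Control 1 and 31.0 SRPBM in TLE 1, with the other libraries between. The floors, and the exact interval given for a ratio of junction reads, cover counting error only, since no molecular identifiers are described. The intervals given with log2 fold changes come from limma and rest on the spread between mice. A circRNA listed at 0 may also have been read and then not kept by the authors' filters.

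Most of these circRNAs were rare. In single libraries 8, 5 and 6 of the 17 were detected in Control 1, 2 and 3, and 7, 10 and 9 in TLE 1, 2 and 3. Control averaged 6.33 ± 1.53 circRNAs and TLE 8.67 ± 1.53 (SD, n = 3 each), and the groups overlapped. When a circRNA was counted only from 3 reads upward, the numbers were 7, 5 and 6 in Control and 5, 7 and 7 in TLE. Of all 11171 circRNAs, 4624, 4288 and 4659 were detected without this limit in Control 1, 2 and 3. In TLE 1, 2 and 3 these were 3989, 5052 and 5976. Over the 6 libraries, 8 of the 17 (47.1%) were found in a single library and 3 (17.6%) in all 6, beside 45.4% and 13.9% of all 11171 circRNAs. The median of 5 junction reads per circRNA was the same as over the whole table. In 7 of the 17, no library held more than 3 reads, as in 5659 of all 11171.

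**Figure D1:**
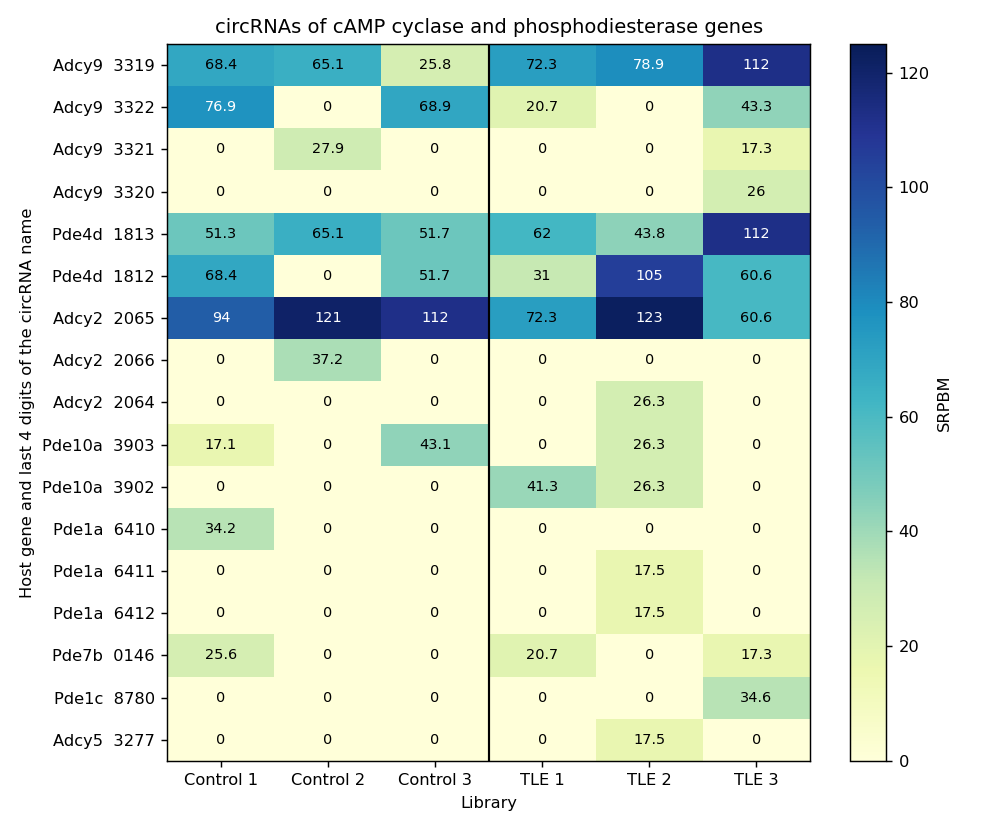
SRPBM of each of the 17 circRNAs (rows, grouped by host gene) in the 3 Control and 3 TLE libraries (columns), with the value printed in each cell. The rows of mmu_circ_0002065 of Adcy2, mmu_circ_0003319 of Adcy9 and mmu_circ_0001813 of Pde4d are filled in all 6 libraries, while 8 rows hold a value in 1 library.

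The ends of 15 of the 17 circRNAs (88.2%) lay on exon boundaries of a single transcript of the host gene. The exons between the ends numbered 5 at the median, from 2 to 8, and came to 631 nt at the median, from 312 to 986 nt. Over all circRNAs placed in this way the medians were 4 exons and 609 nt. What lies inside a circle was not sequenced as such, so these lengths hold if every annotated exon between the ends is kept.

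All 15 lay wholly within the coding sequence, and none held the start codon. Among all placed circRNAs, 82.3% were wholly coding and 15.4% held the start codon. The spliced length was a multiple of 3 in 6 of the 15 (40.0%), beside 38.0% of all placed circRNAs. Exon 2 was the first exon in 3 of the 15 (20.0%), beside 29.3% of all. These counts hold for the transcript used for each gene. On other coding transcripts of Pde4d, mmu_circ_0001812 begins at exon 2 and not at exon 4.

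The introns next to the circles were long, as they were throughout the table. The intron before the first exon was longer than the median intron of its own transcript in 13 of the 15 (86.7%), and the intron after the last exon in 14 (93.3%), against 81.8% and 81.9% of all placed circRNAs. The intron before exon 4 of Pde4d, which precedes mmu_circ_0001812, spans 707689 bases. The intron before exon 2 of Pde1a spans 200945 bases, and the 1 before exon 2 of Pde10a 96715 bases. Each length holds for the transcript used for that gene, and other transcripts may have another intron before these exons.

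**Figure D2:**
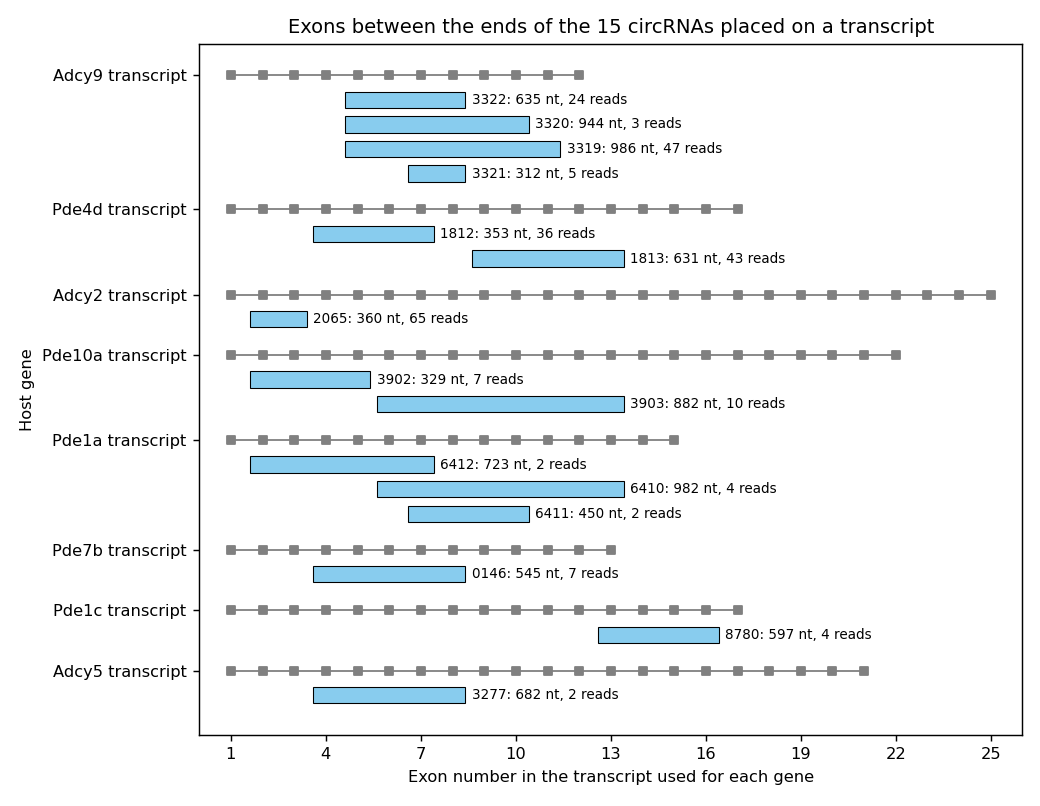
Exons between the ends of the 15 circRNAs placed on a transcript (bars) against the exons of that transcript (grey squares), by exon number counted from the 5′ end. Exons are drawn evenly spaced and not to the scale of the genome, and each bar is labelled with its spliced length and its junction reads over the 6 libraries. Of the 4 Adcy9 circles, 3 begin at exon 5.

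Adcy2 encodes a cyclase that is stimulated by G protein beta-gamma subunits. Its leading circRNA, mmu_circ_0002065, joins exons 2 and 3 of 25 into 360 nt, and the intron after exon 3 spans 91279 bases. It held 94.0, 120.9 and 112.0 SRPBM in Control 1, 2 and 3, and 72.3, 122.7 and 60.6 SRPBM in TLE 1, 2 and 3. These are 65 junction reads, the most of any of the 17 circRNAs and 90.3% of the reads of the gene's circles. TLE 1 and TLE 3 lay under all Control libraries and TLE 2 above them, so the groups overlapped. The log2 fold change was -0.34 (95% interval -1.16 to 0.47), with an adjusted p of 0.922 in limma after Benjamini-Hochberg adjustment.

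The other 2 circRNAs of Adcy2 were each seen in 1 library and had only 1 end on an exon boundary. mmu_circ_0002066 held 37.2 SRPBM, from 4 reads, in Control 2. mmu_circ_0002064 held 26.3 SRPBM, from 3 reads, in TLE 2, and its other end lay within the last exon. With them the Adcy2 sum was 121 ± 33.0 SRPBM in Control and 94.0 ± 48.1 SRPBM in TLE (SD, n = 3).

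Adcy9 encodes a widely expressed cyclase that differs from the other membrane cyclases in being poorly stimulated by forskolin. It hosted 4 circRNAs, the most of the 10 genes, and all lay between exons 5 and 11 of a transcript of 12 exons. The leading circRNA, mmu_circ_0003319 (exons 5 to 11, 986 nt), held 68.4, 65.1 and 25.8 SRPBM in Control and 72.3, 78.9 and 112.5 SRPBM in TLE. Every TLE library lay above every Control library, by 3.94 SRPBM at the closest, which is less than the value of 1 junction read. The log2 fold change was 0.63 (95% interval -0.32 to 1.58), with an adjusted p of 0.922 in limma after Benjamini-Hochberg adjustment. Of all 4271 circRNAs tested, 11.1% had groups that did not overlap. When the libraries were brought to the same total, the Control values became 73.8, 74.6 and 27.2 and the TLE values 81.7, 73.2 and 87.3, and the groups overlapped.

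The next circRNA of Adcy9, mmu_circ_0003322 (exons 5 to 8, 635 nt), starts at the same base. It held 76.9, 0 and 68.9 SRPBM in Control and 20.7, 0 and 43.3 SRPBM in TLE, with 17 and 7 junction reads. Control 2 and TLE 2 were both listed at 0, and TLE 1 and TLE 3 lay under Control 1 and Control 3. The log2 fold change was -0.61 (95% interval -2.19 to 0.97), with an adjusted p of 0.922 in limma after Benjamini-Hochberg adjustment. Its share of the Adcy9 SRPBM was 52.9, 0 and 72.7% in Control and 22.2, 0 and 21.7% in TLE, so that the groups overlapped here too. Whether the 2 Adcy9 circles changed differently was not tested.

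mmu_circ_0003321 (exons 7 and 8, 312 nt) uses the same end of exon 8 and was seen in Control 2 at 27.9 and in TLE 3 at 17.3 SRPBM. mmu_circ_0003320 (exons 5 to 10, 944 nt) was seen in TLE 3 alone, at 26.0 SRPBM. Summed over the 4 circles, Adcy9 stood at 145.3, 93.0 and 94.8 SRPBM in Control and 93.0, 78.9 and 199.0 SRPBM in TLE. TLE 3 was the highest and TLE 2 the lowest of the 6 libraries, and the sums gave a log2 fold change of 0.06 (95% interval -0.83 to 0.95). The direction of this sum turned to -0.14 when the libraries were brought to the same total, and also without Control 2 (-0.03), Control 3 (-0.02) or TLE 3 (-0.29).

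**Figure D3:**
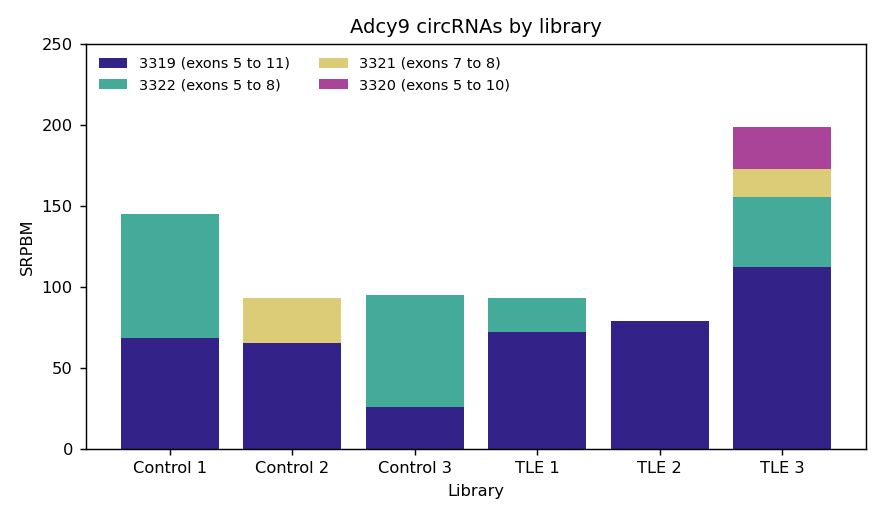
SRPBM of the 4 Adcy9 circRNAs stacked by library, with the exons each one spans. mmu_circ_0003319 is present in every library, mmu_circ_0003322 is missing from Control 2 and TLE 2, and all 4 are present in TLE 3 alone.

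Adcy5 encodes the main cyclase of striatal medium spiny neurons, where it acts downstream of dopamine and adenosine receptors. Its single circRNA, mmu_circ_0003277 (exons 4 to 8 of 21, 682 nt), was listed in TLE 2 at 17.5 SRPBM, which is 2 reads and under the floor, and at 0 in the other 5 libraries.

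Pde4d encodes a cAMP-specific phosphodiesterase, the target of rolipram together with its close relatives, that is made as long and short forms from different promoters. It hosted 2 circRNAs that do not share an exon. mmu_circ_0001813 (exons 9 to 13 of 17, 631 nt) held 51.3, 65.1 and 51.7 SRPBM in Control and 62.0, 43.8 and 112.5 SRPBM in TLE. The lowest and the highest value were both from TLE libraries, and the log2 fold change was 0.23 (95% interval -0.73 to 1.19). It came to -0.07 without TLE 3 and to 0.05 with the libraries brought to the same total. The exon boundaries of this circle are found in 11 of the 12 coding transcripts of the gene, of 10 to 17 exons.

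mmu_circ_0001812 (exons 4 to 7, 353 nt) held 68.4, 0 and 51.7 SRPBM in Control and 31.0, 105.2 and 60.6 SRPBM in TLE. It was listed in every library except Control 2, and the TLE values spanned those of the other Control libraries. The log2 fold change was 0.73 (95% interval -0.62 to 2.07), the highest of the 7 circRNAs tested, and became 0.01 without Control 2. Its boundaries are found in 8 of the 12 coding transcripts, those of 15 to 17 exons, and in none of the 4 with 5 to 10 exons. This circle took 45.6% of the Pde4d junction reads.

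The Pde4d sum was 119.6, 65.1 and 103.4 SRPBM in Control and 93.0, 149.0 and 173.1 SRPBM in TLE. TLE 2 and TLE 3 lay above all Control libraries and TLE 1 within their range. The means were 96.0 ± 28.0 and 138 ± 41.1 SRPBM (SD, n = 3), with a log2 fold change of 0.45 (95% interval -0.40 to 1.31), or 0.26 with the libraries brought to the same total. The adjusted p was 0.891 in limma after Benjamini-Hochberg adjustment. The junction reads, 33 in Control and 46 in TLE, gave a ratio of 1.45 after scaling to depth, with an exact 95% interval of 0.91 to 2.35 for counting error alone.

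Pde10a encodes a phosphodiesterase of both cAMP and cGMP that is known above all from striatal medium spiny neurons. Its 2 circRNAs lie side by side and share no exon. mmu_circ_0003903 (exons 6 to 13 of 22, 882 nt) held 17.1, 0 and 43.1 SRPBM in Control and 0, 26.3 and 0 SRPBM in TLE. The groups overlapped, and the log2 fold change was -0.49 (95% interval -1.82 to 0.84). mmu_circ_0003902 (exons 2 to 5, 329 nt) was listed in TLE 1 at 41.3 and in TLE 2 at 26.3 SRPBM, from 7 reads, and at 0 in TLE 3 and the 3 Control libraries. It was above 0 in too few libraries to be tested. The sum was 17.1, 0 and 43.1 SRPBM in Control and 41.3, 52.6 and 0 SRPBM in TLE, so 1 library of each group held no Pde10a circle at all. The log2 fold change of the sum was 0.33 (95% interval -1.15 to 1.81), and its direction turned without Control 2 (-0.14) or without TLE 2 (-0.05).

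Pde7b encodes a cAMP-specific phosphodiesterase that is also strong in striatum. Its single circRNA, mmu_circ_0000146 (exons 4 to 8 of 13, 545 nt), held 25.6, 0 and 0 SRPBM in Control and 20.7, 0 and 17.3 SRPBM in TLE. All values were at or under the floor of 3 reads. The log2 fold change was 0.28 (95% interval -0.94 to 1.49).

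Pde1a and Pde1c encode phosphodiesterases that calcium and calmodulin switch on. Pde1a hosted 3 circRNAs, none in more than 1 library. mmu_circ_0006410 (exons 6 to 13 of 15, 982 nt) was listed in Control 1 at 34.2 SRPBM. mmu_circ_0006411 (exons 7 to 10) and mmu_circ_0006412 (exons 2 to 7) were each listed in TLE 2 at 17.5 SRPBM. The circRNA of Pde1c, mmu_circ_0008780 (exons 13 to 16 of 17, 597 nt), was listed in TLE 3 at 34.6 SRPBM, from 4 reads. None of these 4 could be tested.

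Pde4b is a close relative of Pde4d that is also found in glia and immune cells, and Pde8b a phosphodiesterase with high affinity for cAMP. Neither was the only listed host of any circRNA. The smallest value above 0 was 2 reads in each library, so a listed 0 may stand for a lone read as well as none. For a circle of these genes, the floor of 3 reads is therefore not an upper limit.

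Set side by side, the 8 hosts fell into an upper and a lower range. Over the 6 libraries Adcy9 averaged 117.3 ± 46.1 SRPBM, Pde4d 117.2 ± 39.1 SRPBM and Adcy2 107.7 ± 39.8 SRPBM (SD, n = 6), and these 3 did not differ beyond their spread. Pde10a followed at 25.7 ± 23.1 SRPBM (SD, n = 6), and Adcy2 lay above Pde10a in 6 of 6 libraries. Pde1a at 11.5, Pde7b at 10.6, Pde1c at 5.77 and Adcy5 at 2.92 SRPBM did not differ from their neighbours in this order beyond the SD. Among the 3469 hosts of the table Adcy9 and Pde4d ranked 647 and 648 by mean SRPBM.

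**Figure D4:**
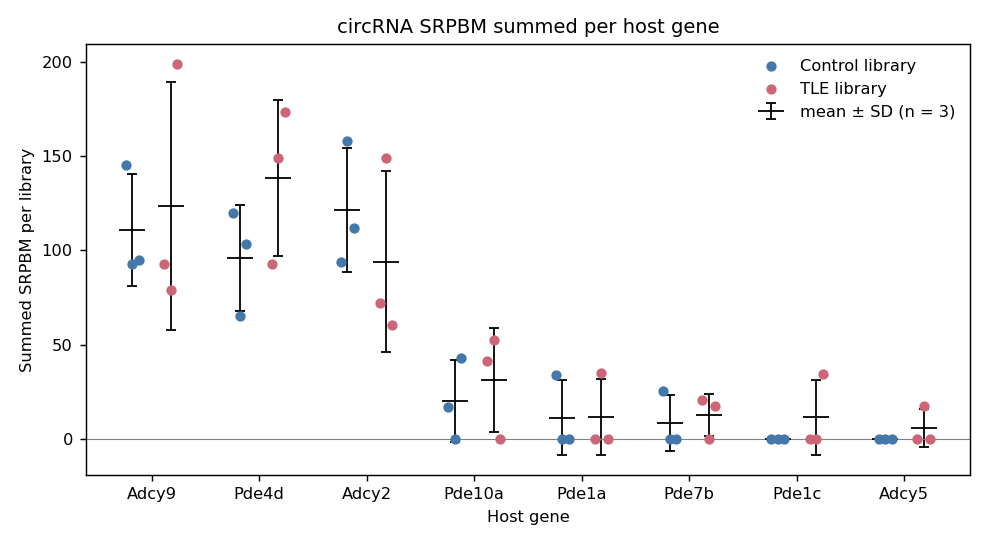
SRPBM summed over the circRNAs of each host gene, with 1 point per library (Control blue, TLE red) and the mean ± SD of 3 libraries in black; a point or bar at 0 means that no circRNA was listed. Adcy9, Pde4d and Adcy2 stand above the other 5 hosts, and the Control and TLE points of every host overlap.

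In the comparison of TLE with Control, 7 of the 17 circRNAs were above 0 in at least 3 libraries and entered the limma test with all such circRNAs. To be called changed, a circRNA needed a log2 fold change of 1.5 or more, or of -1.5 or less, and an unadjusted p under 0.05. None of the 7 passed in either direction, in limma or in limma voom on junction reads. In limma 0 of the 7 had an unadjusted p under 0.05, beside 222 of all 4271 circRNAs tested. Of the 4271 circRNAs tested, 54 (1.26%) passed as higher in TLE and 13 (0.304%) as lower. Of the 7, 4 had a positive and 3 a negative log2 fold change, with a median of 0.23 beside 0.17 over all circRNAs tested. These fold changes were taken after adding 17.1 to each SRPBM value, and so come out too small where reads are few. The smallest adjusted p of the 7 was 0.922 after Benjamini-Hochberg adjustment in limma.

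Summed per host, 5 of the 8 genes could be tested, and 0 passed in either direction by limma or limma voom. In limma 0 of the 5 had an unadjusted p under 0.05, beside 133 of all 2157 hosts tested. Of all 2157 hosts tested, 33 (1.53%) passed as higher in TLE and 8 (0.371%) as lower. None of the 5 sums had groups that did not overlap, where 12.7% of all hosts did. Adcy9, Pde4d, Pde10a and Pde7b had positive values and Adcy2 a negative value, with a median of 0.28 beside 0.20 over all hosts. Bringing the libraries to the same total moved the median of all circRNAs from 0.17 to 0.01 and that of all hosts from 0.20 to 0.02.

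The intervals show how far these counts reach. For 4 of the 7 circRNAs and 2 of the 5 host sums the 95% interval reached a log2 fold change of 1.5 in size. For these a change of the size that would be called could not be told from none with 3 mice per group at this depth. Which intervals reach 1.5 depends on the fit and on the pseudocount, the amount added to each SRPBM value. That of mmu_circ_0000146 of Pde7b ended at 1.49, but at 3.38 in limma voom and at 5.65 with a pseudocount of 1 SRPBM. The Pde7b sum, which holds the same values, reached 1.6, so such a change is not excluded for Pde7b. In both settings the intervals of mmu_circ_0001813 and mmu_circ_0002065 stayed within 1.5. In bulk cortex, fewer cells of a type and less RNA per cell cannot be told apart.

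**Figure D5:**
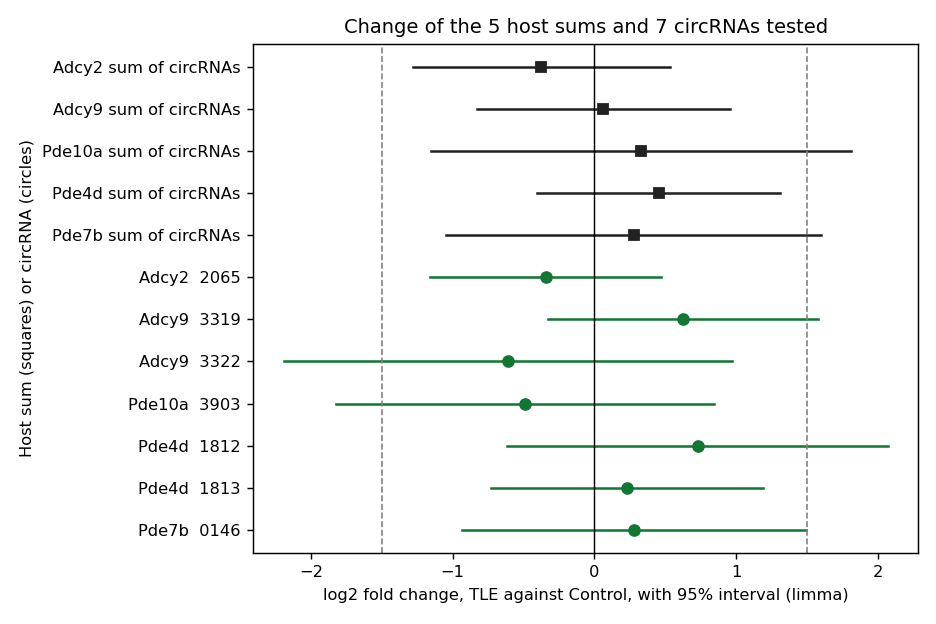
Log2 fold change of TLE against Control with its 95% interval from limma, for the 5 host sums (squares) and the 7 circRNAs (circles) that were tested; dashed lines mark 1.5 in either direction. Every interval crosses 0, and 6 of the 12 reach a dashed line.

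Summed over the family, the cyclase circRNAs held 239.3, 251.0 and 206.7 SRPBM in Control and 165.3, 245.5 and 259.6 SRPBM in TLE. Those of the phosphodiesterases held 196.6, 65.1 and 146.4 SRPBM in Control and 154.9, 236.7 and 225.0 SRPBM in TLE. In each family the groups overlapped, and Control 2 held the lowest phosphodiesterase value of the 6.

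Since Adcy5, Pde10a and Pde7b are known from striatum, markers of striatal neurons were read in the same table. Of 12 such genes 1, Meis2, hosted a circRNA, at 0, 18.6 and 51.7 SRPBM in Control and 0, 70.1 and 43.3 SRPBM in TLE. The defining markers Drd1, Drd2, Adora2a and Rgs9 hosted none. Astrocyte markers with a circRNA were 3 of 10, summing to 103 to 190 SRPBM in Control and 61.4 to 186 SRPBM in TLE, oligodendrocyte markers 2 of 10 (0 to 34.2 and 0 to 31.0 SRPBM), and markers of oligodendrocyte precursors 2 of 6 (0 to 34.2 and 0 to 51.7 SRPBM). None of 8 microglial and none of 9 endothelial markers hosted any. A gene may be expressed without forming circles, so these lists say little about how much of each cell type was in the tissue, and their part in the values of Pde10a, Pde7b and Adcy5 was not tested.

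A further 67 genes were read: cyclases, phosphodiesterases, G proteins, PKA and its anchors, Epac, channels, CREB and other effectors. Some of these phosphodiesterases, such as Pde5a, are specific for cGMP, so the 67 are not all cAMP genes. Of the 67, 28 hosted a circRNA, 75 circRNAs in all. At the host level 19 of them could be tested, and none passed the threshold in limma. The unadjusted p in limma was under 0.05 for 1 of the 19, beside 133 of all 2157 hosts tested. The highest sums were those of Akap7, an anchor of PKA (320 SRPBM on average), Adcy1, the cyclase that calcium and calmodulin activate (314 SRPBM), and Pde5a, a cGMP-specific phosphodiesterase (244 SRPBM). Each of the 3 averaged more than Adcy9, the first of the 8 hosts described here.

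Groups did not overlap in 3 of the 19, all higher in TLE, where 231 of the 2157 hosts lay wholly higher in TLE and 42 wholly lower (12.7% in all), so the count is near that of the whole table. These 3 were named after their values were seen. Akap9, a scaffold that holds PKA at the centrosome and Golgi, stood at 0, 0 and 0 SRPBM in Control and reached 31.0, 26.3 and 17.3 SRPBM in TLE, at or under the floor of 3 reads in each. Its unadjusted p was 0.0399 in limma, and the adjusted p was 0.772 after Benjamini-Hochberg adjustment. Akap10, another anchor of PKA, stood at 34.2, 55.8 and 60.3 SRPBM in Control and 93.0, 61.4 and 208 SRPBM in TLE. Rapgef4, which encodes the neuronal form of Epac, stood at 76.9, 93.0 and 68.9 SRPBM in Control and 103, 193 and 104 SRPBM in TLE. Their adjusted p in limma after Benjamini-Hochberg adjustment was 0.834 for Akap10 and 0.889 for Rapgef4. Summed over the 10 hosts among PKA and its anchors, Control held 632 to 904 and TLE 964 to 1160 SRPBM. With the libraries brought to the same total, the groups overlapped for this sum (725 to 953 and 895 to 1179), for Akap10 (36.9 to 63.9 and 56.9 to 161) and for Rapgef4 (72.6 to 107 and 80.5 to 179), while Akap9 stayed at 0 in Control. The sums of the other cyclases (298 to 362 SRPBM in Control and 289 to 554 in TLE) and of the other phosphodiesterases (298 to 385 and 207 to 398 SRPBM) overlapped, as did those of G proteins and of the other effectors.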

How the data were processed

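Ribosomal RNA was removed from total RNA of 6 cortices (3 Control, 3 TLE), and directional libraries were made with a kit from NEB. The authors found circRNAs from reads that span back-spliced junctions with CIRI and deposited the SRPBM signal of each circRNA in each library, with its position and host gene. The submitters' processing notes name mm10 and DESeq2. The version of CIRI is not given in the sources used here. The 6 deposited tables were identical, so 1 was read.

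All values in a library were whole multiples, within 0.05 read, of 1 step, taken as 1 junction read (8.55 to 10.3 SRPBM). The smallest value above 0 was 2 reads. Because SRPBM is not a count, log2(SRPBM + 17.1) was tested with limma 3.58.1 in R 4.3.3 (trended eBayes, two-sided, Benjamini-Hochberg) over all circRNAs, or all host sums, above 0 in at least 3 libraries. The pseudocount is the smallest value above 0. The threshold was that of the study, with the p unadjusted, since its methods do not say which was used. The fits were also run on simulated counts with counting error only and no added spread between mice. That run does not show how well changes among these circRNAs would be found. The methods treat mice as the replicates. Samples with the same number hardly deviated together (r across circRNAs 0.0192, 0.0139 and 0.0103). Pairs with different numbers gave lower r, between -0.0242 and 0.00922.

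Circle ends were placed on GENCODE M21 (GRCm38), and all circles of a gene on the transcript that holds most of them. All 10 hosts and their circRNAs are reported. Of the other pathway and phosphodiesterase genes, any past the threshold and the 3 with the highest sums are named. In addition 3 were named after their values were seen, because their groups did not overlap. The members and gene lists were chosen with earlier results of these data known. Alternatives were other pseudocounts and filters, rescaling to the same total, limma voom on junction reads, thinning of the reads to the smallest library, a replicate block and leaving out each library in turn. Some marker genes are not reported here. Rows without a single listed host did not enter the host sums. Tables and plots were made in Python 3.11.15 (pandas 2.3.3, numpy 2.4.6, matplotlib 3.10.9, scipy 1.17.1).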

Additional observations from a re-analysis of the deposited data

How the results depend on the processing

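No circRNA or host sum of the 10 genes passed the threshold under any alternative: the counts of circRNAs and host sums higher or lower in TLE were 0 in each of the 60 comparisons with another setting. With the samples paired by number, in a fit with the replicate block, the counts were 0 as well, and no call changed; the labels share only numbers. The mean number of circRNAs detected was 2.33 higher in TLE than in Control, and 0.333 higher when at least 3 reads were asked for, which leaves fewer circRNAs to count; with the reads of each library thinned to those of the smallest it was 1.12 higher. The direction turned for 3 features. mmu_circ_0001813 of Pde4d came to -0.07 without TLE 3. The Adcy9 sum came to -0.14 with libraries rescaled to the same total, -0.03 without Control 2, -0.02 without Control 3 and -0.29 without TLE 3. The Pde10a sum came to -0.14 without Control 2 and -0.05 without TLE 2. In an alternative chosen after seeing the data, rescaling turned the gap between the lowest TLE and highest Control value from 3.94 to -1.41 SRPBM for mmu_circ_0003319, from 1.07 to -7.02 for Akap10, from 10.3 to -26.1 for Rapgef4 and to -58.5 for the sum of PKA and its anchors. The other 146 values kept their direction and their side of the threshold. Leaving out 1 library at a time moved the log2 fold change of mmu_circ_0001812 between 0.01 and 1.17, that of mmu_circ_0003322 between -1.41 and -0.12, that of mmu_circ_0003319 between 0.31 and 0.80, that of mmu_circ_0001813 between -0.07 and 0.47, the Adcy9 sum between -0.29 and 0.29, the Pde10a sum between -0.14 and 0.96 and the Pde4d sum between 0.24 and 0.68. The values of mmu_circ_0002065 lay between -0.59 and -0.17 and those of the Adcy2 sum between -0.71 and -0.16. Over 3 fits each, those of mmu_circ_0003903 lay between -0.96 and -0.27 and those of Pde7b between 0.06 and 0.64. Without any of the other libraries, neither mmu_circ_0003903 nor Pde7b was above 0 in enough libraries to be tested. Depth limits these results: of the 17 circRNAs, 7 never exceeded 3 reads in a library.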

Other observations

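Within the bounds of the 10 genes lay 4 further circRNAs to which no host is assigned in the deposited table, and they were left out of all counts and sums. Inside Pde8b, mmu_circ_0002194 (chr13:95186055-95186523, minus strand) held 17.1 SRPBM in Control 1 and 20.7 SRPBM in TLE 1. Inside Pde4d, mmu_circ_0001810 held 17.2 SRPBM in Control 3, mmu_circ_0001811 held 20.7 SRPBM in TLE 1 and mmu_circ_0001809 held 17.3 SRPBM in TLE 3. Each of these values is 2 junction reads, and 3 of the 4 circRNAs have 1 end on an annotated exon boundary.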
